A study of Mus musculus with 36 samples.

Results

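The comparison described here is the difference between the antimycin and oligomycin response of homozygous and of wild-type mouse embryonic fibroblasts in a Tbk1 N129D knock-in series. For each cell line the change was taken as log2 RNA abundance under antimycin plus oligomycin (AO) minus that of the same line untreated, and the changes of the homozygous lines were set against those of the wild-type lines. It rests on 12 of the 36 libraries: E1.5, E2.1 and E2.7, of genotype wt/wt (WT), and E1.4, E2.2 and E2.9, of genotype N129D/N129D (hom), each without treatment and after 4 h of AO, with no density label. The same lines given the synthetic double-stranded RNA poly(I:C) for 4 h and the N129D/wt lines (het) E2.5, E2.6, E2.8 and E1.3 entered the same model. The labels name separate lines, and the main model holds a coefficient for each. Its p-values thus measure how treatment changes scatter between lines, pooled over all genotypes and both treatments. The sources used here give no meaning for E1 and E2, no mouse strain and no passage.

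The product of Tbk1 is a serine/threonine kinase with known roles in separate pathways. In antiviral signalling it phosphorylates the transcription factor IRF3, and at damaged mitochondria it phosphorylates optineurin and p62, receptors that deliver ubiquitin-tagged cargo to autophagosomes. The knock-in exchanges an asparagine of the kinase for aspartate. Antimycin stops electron flow at complex III of the respiratory chain, and oligomycin stops the proton channel of ATP synthase. Together they are widely used to depolarise mitochondria, start the PINK1 and Parkin pathway of mitophagy and raise the integrated stress response, in which phosphorylation of eIF2α favours translation of ATF4.

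Depth was 3689149 to 14879237 counts per library in the 12 libraries, and the hom AO libraries (3689149 to 5320971) were shallower than the untreated hom libraries (7524667 to 8024577). All 12 fibroblast markers examined, collagens and Pdgfra among them, were detected, with summed levels of 8606 to 13910 CPM (counts scaled to a common library size). All 18 macrophage markers had counts in some library, and their summed levels were 3.49 to 9.71 CPM in all libraries but those of hom E2.9, which held 269.9 CPM untreated and 170.4 CPM under AO. The AO library of hom line E1.4 stood apart. Its TMM scaling factor was 0.895 against 0.985 to 1.06 in the other 11, and the ribosomal RNA gene CT010467.1 took 0.605% of its counts, against 1.18% in untreated WT E2.7 and 0.102% to 0.203% in the other 10. Both libraries of E1.4 also held the highest summed levels of smooth muscle markers (4825 and 4279 CPM against 1413 to 2794 in the other 10), adipocyte markers (158 and 179 against 21.3 to 84.7) and epithelial and keratinocyte markers (56.4 and 74.7 against 8.31 to 36.9). Summed chondrocyte markers were higher in every hom line than in every WT line in both states. Untreated they stood at 127.3 to 165.1 CPM in hom and 56.7 to 118.8 in WT. Under AO they stood at 87.3 to 96.6 CPM in hom and 46.6 to 83.1 in WT. The part of these libraries and markers in any result was not tested. Where leaving out 1 of the 6 lines moved a difference or a median difference given here by over 1.5 times or across 0, its leave-out range follows, with the line left out for each end in square brackets. Of the 54 genes named by rule 31 moved so far, and of 30 gene lists 28. In bulk RNA, fewer cells of a type and less RNA per cell cannot be told apart.

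No gene passed the test of the difference between the hom and WT responses. Of 13364 genes tested with edgeR's quasi-likelihood test and Benjamini-Hochberg adjustment, 0 passed at an adjusted p under 0.05 (0% called), and the smallest adjusted p was 1. At an unadjusted p under 0.05 there were 455 genes (3.4%). That is below the share of 0.05 that evenly spread p-values would give, so the count itself shows no difference. Whether the test was too strict here was not tested. When a line was left out the count ranged from 283 (without WT E2.7) to 898 (without hom E2.2). A limma test on the 6 per-line changes passed 0 genes (599 unadjusted). DESeq2 passed 1 (377 unadjusted), the pseudogene Gm5884, chosen here after its values were seen. Gm5884 had 14 counts in the AO library of WT E2.1, 12 in that of WT E2.7 and 0 in the other 10 compared libraries, so its fitted fold has no firm size. Leaving out any of the 6 lines gave 0 genes in each case. Without the filter on low counts edgeR passed 42 genes.

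The treatment itself moved much of the transcriptome in both genotypes. In WT 3055 genes passed (22.9%), 1498 higher and 1557 lower. In hom 3965 passed (29.7%), 1954 higher and 2011 lower. The lists share no library, and 2381 genes were in both. Of these, 2380 went the same way, 1197 up and 1183 down, which is 77.9% of the WT list and 60.03% of the hom list. Among all genes called in WT 99.2% had the same sign in hom, and among those called in hom 98.2% had the same sign in WT. Across genes, which are not independent replicates, the fitted responses of the genotypes had a Pearson r of 0.64 and a Spearman rho of 0.74. Leaving out hom E1.4, which also enters the shared estimate of the spread, gave 4610 genes in WT, and leaving out a WT line gave 1448 (E2.1), 1544 (E2.7) or 1655 (E1.5). Without the line as a block 1024 genes passed in WT and 1749 in hom. The larger number called in hom does not show that the responses differ, and the test of the difference passed 0 genes.

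**Figure D1:**
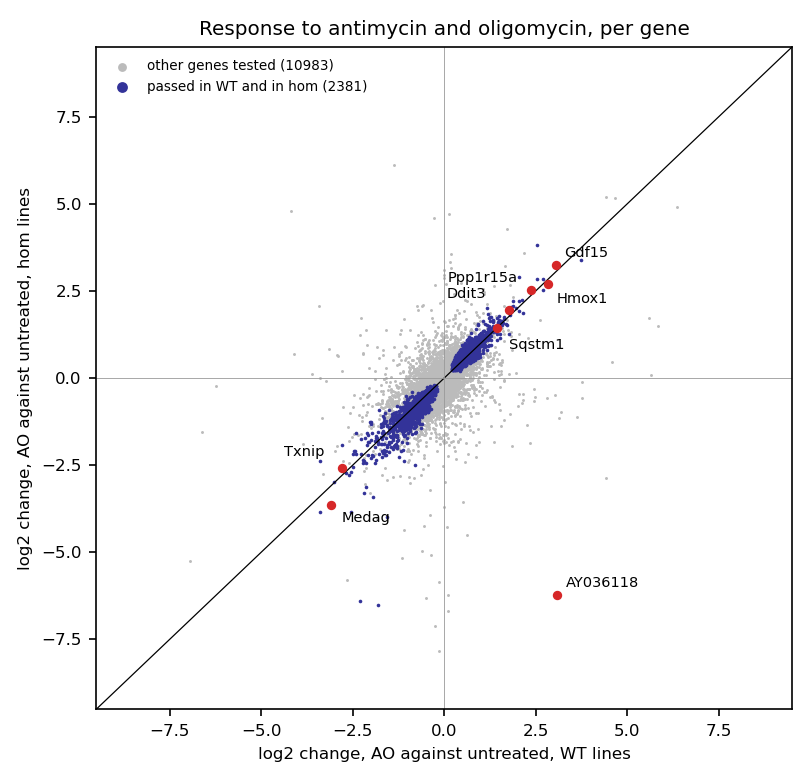
Fitted log2 change under antimycin and oligomycin (AO) in WT lines (x axis) against hom lines (y axis) for the 13364 genes tested; the line marks equal change. The 2381 genes that passed in both genotypes (blue) changed in the same direction with 1 exception, AY036118, and genes labelled by name are in red.

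The exception, AY036118, is a non-coding RNA gene at chr17:39847113-39848035 (mm10), inside the ribosomal RNA gene CT010467.1 and on the same strand, so reads of the pair may be shared out between them. Its counts were 6, 0 and 0 in untreated WT lines and 44, 0 and 0 under AO, 33, 0 and 3 in untreated hom lines and 0, 0 and 0 under AO. Most of its reads were in WT E1.5 and hom E1.4. It was chosen for mention after its values were seen, it fell below the expression limit for named genes, and its difference had an unadjusted p of 0.000455 and an adjusted p of 1.

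How much difference the data leave room for can be read from the intervals. For 9606 genes (71.9% of the 13353 with an interval) the 95% interval of the difference lay within a 2-fold change either way, and for 5413 (40.5%) within 1.5-fold. The median interval reached 0.48 log2 units to each side. Among the 3055 genes that responded in WT, 83.2% had an interval within 2-fold and 52.7% within 1.5-fold. A fitted difference of over 2-fold was seen in 518 genes, 55 of them among the WT responders. Per-line changes did not overlap between the genotypes for 1644 genes (12.3% of those tested), 774 with hom higher (5.79%) and 870 with hom lower (6.51%).

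The size of the response was compared over genes chosen in the het lines, 1723 that rose and 1948 that fell there. The median change of the rising genes was 0.47, 0.47 and 0.48 in the WT lines and 0.45, 0.54 and 0.53 in hom E1.4, E2.2 and E2.9. The WT lines thus sat inside the range of the hom lines. Among falling genes the medians were -0.55, -0.53 and -0.54 in WT and -0.60, -0.64 and -0.65 in hom. Here each hom line lay below each WT line, while the 4 het lines spanned -0.68 to -0.45 and covered both. The genes were chosen by their fall in these het lines, so the het span is no independent reference. In WT line E1.5 alone, cultures labelled high and low density gave -0.59 and -0.52. No test was made of these medians, and the shallower hom AO libraries move with them.

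Tbk1 (ENSMUSG00000020115, chr10:121546455-121586787 in mm10, minus strand) rose under AO in both genotypes. In WT, with lines in the order E1.5, E2.1, E2.7 throughout, it stood at 47.97, 39.03 and 49.3 CPM untreated and 66.6, 71.2 and 67.1 CPM under AO. In hom, in the order E1.4, E2.2, E2.9, it stood at 40.7, 46.3 and 48.4 CPM and 56.04, 71.5 and 74.5 CPM. Every AO library was above every untreated library, with the genotypes overlapping in both states. The log2 change was 0.59 ± 0.13 (SE) in WT (edgeR adjusted p = 0.00218) and 0.57 ± 0.13 in hom (adjusted p = 0.00233). The difference, hom minus WT, was -0.02 (95% interval -0.40 to 0.36, leave-out range -0.08 [E1.5] to 0.11 [E2.1]). An amino acid exchange need not alter the level of the mRNA, so this value does not check the genotype labels.

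The cargo receptors that Tbk1 acts on rose in both genotypes, with intervals of the difference within 1.5-fold either way. Sqstm1, which encodes the ubiquitin-binding receptor p62, went from 394, 358 and 397 CPM to 1024, 1038 and 1022 CPM in WT. In hom it went from 422, 323 and 324 CPM to 954, 1025 and 883 CPM. The treated levels were at least 2-fold above the untreated ones in each line, and the difference of log2 changes was 0.00 ± 0.16 (SE, 95% interval -0.34 to 0.33, leave-out range -0.13 [E2.2] to 0.13 [E1.4]). Optn, which encodes optineurin, went from 18.4, 15.8 and 19.98 CPM to 31.9, 26.2 and 27.9 CPM in WT and from 20.1, 18.8 and 13.3 CPM to 32.4, 29.4 and 25.98 CPM in hom. It rose in both genotypes (adjusted p = 0.000823 and 0.000236), with a difference of 0.09 (95% interval -0.30 to 0.47, leave-out range 0.00 [E2.9] to 0.14 [E2.2]). Pink1, the kinase that marks depolarised mitochondria, passed in neither genotype, and its difference was -0.09 (95% interval -0.50 to 0.32, leave-out range -0.26 [E1.4] to 0.03 [E2.2]).

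Across 22 mitophagy receptors and regulators, 5 rose and 1 fell in WT and 5 rose and 1 fell in hom (11.2% of all genes tested rose and 11.7% fell in WT, 14.6% and 15% in hom). These shares of all genes also apply to the counts of each list below. The median difference of the list was -0.01 (leave-out range -0.05 [E2.9] to -0.01 [E1.4]), beside 0.00 for all genes, and all 22 intervals lay within 2-fold. The member with the smallest p was Rabgef1, an exchange factor for the endosomal GTPase Rab5. It changed by 0.35, 0.54 and 0.39 in the WT lines and by 0.09, 0.08 and 0.13 in the hom lines, so the lines did not overlap, and the difference was -0.33 (95% interval -0.72 to 0.07), adjusted p = 1. Among 22 genes of Tbk1, its adaptors and nucleic acid sensors, 3 rose and 2 fell in WT and 3 rose and 3 fell in hom, with a median difference of -0.05 (leave-out range -0.14 [E2.1] to -0.01 [E2.7]). Rnf135, a ubiquitin ligase for the RNA sensor RIG-I, led that list with changes of -0.58, -0.79 and -0.31 in WT and -0.81, -1.67 and -2.13 in hom, and an interval of -2.16 to 0.16.

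Lysosome genes include many known targets of the transcription factors TFEB and TFE3. Of 43 lysosome and folliculin-Rag genes, 23 rose and 1 fell in WT, 26 rose and 1 fell in hom, and 22 were called in the same direction in both. The difference was positive for 31 of the 43, beside 6796 of all 13364 genes, with a median of 0.13. Per-line changes did not overlap for 11 of them (12.3% of all genes), 9 with hom higher (5.79% of all genes). The per-line medians were 0.26, 0.33 and 0.31 in WT and 0.40, 0.42 and 0.45 in hom, and none of the 43 passed the test of the difference. Leaving out WT E1.5, hom E1.4 or hom E2.2 brought the median difference to between 0.09 and 0.10. Among 34 core autophagy genes 7 rose and 5 fell in WT and 10 rose and 5 fell in hom (all genes: 11.2% and 11.7% in WT, 14.6% and 15% in hom). Their median difference was 0.03 (leave-out range 0.01 [E1.5] to 0.06 [E2.7]).

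Flcn encodes folliculin, which controls the Rag GTPases at the lysosome. It stood at 38.9, 34.8 and 44.7 CPM untreated and 94.6, 93.5 and 110.1 CPM under AO in WT, and at 31.7, 35.3 and 36.8 CPM and 69.98, 108 and 115 CPM in hom. It rose in all 6 lines, by 1.34 in WT and 1.47 in hom on the log2 scale, and the difference was 0.14 (95% interval -0.26 to 0.54, leave-out range 0.05 [E2.9] to 0.29 [E1.4]). Tfeb itself was low, at 2.06, 4.42 and 4.78 CPM untreated and 3.69, 5.55 and 7.76 CPM under AO in WT, and at 11.7, 6.52 and 5.92 CPM and 14.2, 4.73 and 1.91 CPM in hom. It passed in neither genotype. The per-line changes were 0.76, 0.31 and 0.67 in WT and 0.27, -0.44 and -1.49 in hom, without overlap, and the difference was -0.99 (95% interval -1.78 to -0.20, leave-out range -1.56 [E1.4] to -0.60 [E2.9]), adjusted p = 1. Atg5, needed to lipidate LC3, changed by 0.18, -0.03 and -0.12 in WT and by 0.31, 0.48 and 0.36 in hom, a difference of 0.37 (95% interval 0.08 to 0.66), adjusted p = 1.

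**Figure D2:**
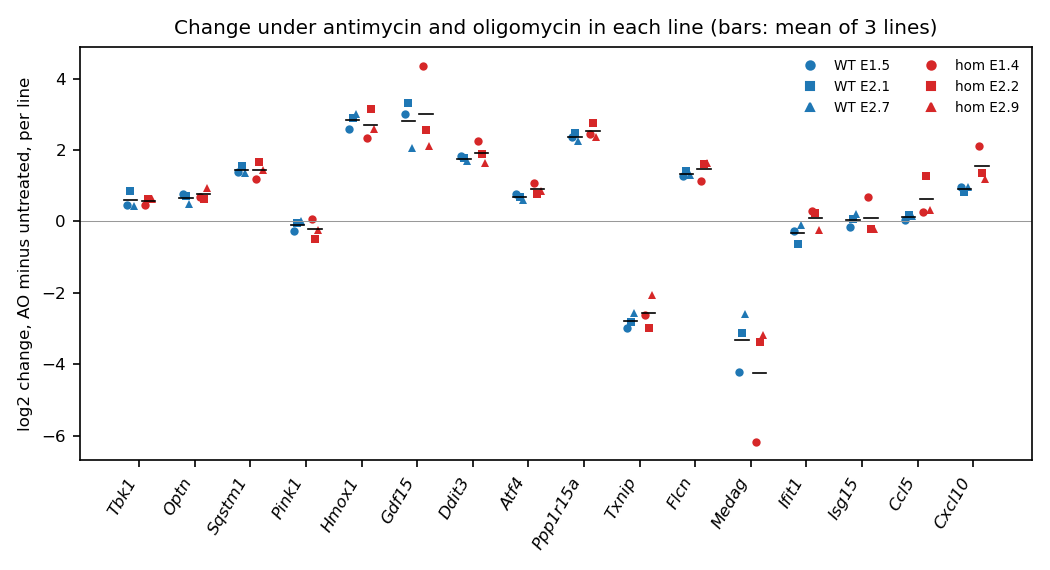
Log2 change under antimycin and oligomycin (AO) in each of the 3 WT (blue) and 3 hom (red) lines for 16 genes of the stress, mitophagy and interferon pathways; horizontal bars are means. Hmox1, Gdf15, Ppp1r15a, Ddit3 and Sqstm1 rose and Txnip and Medag fell in every line of both genotypes.

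The integrated stress response was raised in both genotypes. Of 29 regulators 20 rose and 2 fell in WT and 20 rose and 2 fell in hom. Of the 22 called in each genotype, 20 were called in the same direction in both. The median response was 0.77 in WT and 0.85 in hom, and the median difference was 0.08 (leave-out range 0.02 [E2.2] to 0.15 [E2.9]). Atf4, its central transcription factor, went from 512, 544 and 554 CPM to 874, 873 and 845 CPM in WT and from 731, 501 and 497 CPM to 1531, 860.5 and 888 CPM in hom. Hom E1.4 was the highest library in each state. Atf4 changed by 0.77, 0.68 and 0.61 in WT and 1.07, 0.78 and 0.84 in hom, every hom line above every WT line, yet the difference was 0.21 ± 0.21 (SE, 95% interval -0.23 to 0.65, leave-out range 0.12 [E1.4] to 0.27 [E2.2]), adjusted p = 1.

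Ddit3, which encodes the ATF4-dependent factor CHOP, stood at 74.2, 63.1 and 83.6 CPM untreated and 265, 216 and 268 CPM under AO in WT, and at 103, 61.5 and 67.9 CPM and 492, 228 and 211 CPM in hom. Hom E1.4 reached the highest level, and the other hom lines lay close to WT. The difference was 0.19 (95% interval -0.52 to 0.89, leave-out range 0.00 [E1.4] to 0.33 [E2.9]). Gdf15, a secreted cytokine of mitochondrial stress, went from 0.318, 0.855 and 2.39 CPM to 4.66, 11.3 and 10.9 CPM in WT and from 0.493, 1.63 and 1.26 CPM to 15.9, 11.03 and 6.49 CPM in hom. Its untreated levels were under 3 CPM in all 6 lines. The log2 change was 3.04 in WT and 3.23 in hom, and the interval of the difference, -1.1 to 1.48, leaves room for more than 2-fold either way. The leave-out range -0.50 [E2.7] to 0.60 [E2.9] crossed 0.

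Ppp1r15a encodes GADD34, the phosphatase subunit that reverses eIF2α phosphorylation. It stood at 75.1, 66.1 and 75.6 CPM untreated and 386, 367 and 359.6 CPM under AO in WT, and at 76.4, 55.8 and 70.9 CPM and 423, 376 and 366 CPM in hom. The genotypes overlapped in both states. The change was 2.37 ± 0.15 (SE) in WT (edgeR adjusted p = 9.3e-09) and 2.53 ± 0.15 in hom (adjusted p = 5.66e-09), and the difference was 0.16 (95% interval -0.27 to 0.60, leave-out range 0.05 [E2.2] to 0.24 [E2.9]). Oma1, the inner membrane protease that starts mitochondrial signalling to this pathway, fell in WT and in hom, with a difference of -0.38 (95% interval -0.97 to 0.21, leave-out range -0.50 [E2.7] to -0.18 [E2.2]).

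The promoters of 3 genes that responded in both genotypes are shown for their known control elements: Ppp1r15a and Asns, which rose, and Txnip, which fell. Each is the 250 bases before the RefSeq start in GRCm38.p6, 5′ to 3′ on the gene's strand, at chr7:45526269-45526518 (minus strand), chr6:7693210-7693459 (minus strand) and chr3:96557707-96557956 (plus strand). Both strands were searched. Capitals mark TGACGTCA in Ppp1r15a, an element bound by CREB and ATF factors and held by 1.55% of 32851 promoters of this length, TGATGNAA in Asns, a form of the CCAAT-enhancer and ATF response element held by 3.45%, and the paired carbohydrate response element of Txnip, held by 0.0457%. The last was searched as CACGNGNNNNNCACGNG.
Ppp1r15a: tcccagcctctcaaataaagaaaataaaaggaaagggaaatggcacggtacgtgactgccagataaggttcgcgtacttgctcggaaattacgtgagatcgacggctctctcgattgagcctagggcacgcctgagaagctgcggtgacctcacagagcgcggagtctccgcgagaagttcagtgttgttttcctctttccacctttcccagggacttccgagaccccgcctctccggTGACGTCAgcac
Asns: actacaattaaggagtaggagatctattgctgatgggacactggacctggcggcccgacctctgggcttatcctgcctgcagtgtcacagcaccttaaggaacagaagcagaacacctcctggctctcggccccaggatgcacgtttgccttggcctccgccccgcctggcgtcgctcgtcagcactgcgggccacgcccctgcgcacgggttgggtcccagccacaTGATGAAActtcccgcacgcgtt
Txnip: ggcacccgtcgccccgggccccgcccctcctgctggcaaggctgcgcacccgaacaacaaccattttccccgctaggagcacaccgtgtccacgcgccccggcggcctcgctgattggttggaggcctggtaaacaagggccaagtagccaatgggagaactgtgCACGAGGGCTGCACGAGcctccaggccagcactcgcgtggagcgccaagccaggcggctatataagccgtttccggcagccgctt
The matches lie 12 to 5, 23 to 16 and 85 to 69 bases before the start. A match describes the letters and is not evidence of binding in these cells.

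Asns encodes asparagine synthetase, a textbook ATF4 target. It went from 357, 318 and 299.5 CPM to 527, 495 and 478 CPM in WT and from 372, 272 and 301 CPM to 631, 481 and 561 CPM in hom. Each line rose, by 0.56, 0.64 and 0.68 in WT and 0.76, 0.82 and 0.90 in hom, and although the lines did not overlap the difference was 0.20 (95% interval -0.26 to 0.66), adjusted p = 1. Among 20 genes of amino acid and one-carbon synthesis, 9 rose and 1 fell in each genotype, with a median difference of 0.02 (leave-out range -0.02 [E2.2] to 0.05 [E2.7]). Of 15 amino acid transporters, 9 rose and 2 fell in WT and 7 rose and 2 fell in hom. The glutamine transporter Slc1a5 passed in WT (0.44, adjusted p = 0.00251) and not in hom (0.26, adjusted p = 0.0535), and its difference of -0.18 (95% interval -0.47 to 0.10, leave-out range -0.36 [E2.2] to -0.04 [E1.4]) did not pass. Hom E1.4 had the lowest change of Slc1a5, -0.05, and the transporters' median change was 0.10 in that line, against 0.68 to 0.95 in the other 5. Of 36 aminoacyl-tRNA synthetases, 14 rose and 3 fell in WT and 17 rose and 6 fell in hom. The mitochondrial valyl-tRNA synthetase Vars2 differed by -0.29 (95% interval -0.60 to 0.03), adjusted p = 1.

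Hmox1, the haem-degrading enzyme heme oxygenase 1 and a target of NRF2, had one of the steepest rises among the genes described. It stood at 59.9, 79.05 and 67.99 CPM untreated and 365, 588 and 556 CPM under AO in WT, and at 49.9, 64.1 and 63.7 CPM and 255, 566 and 384 CPM in hom. All treated libraries lay far above all untreated ones, and hom E1.4 had the lowest treated level. The log2 change was 2.84 ± 0.18 (SE) in WT (adjusted p = 9.3e-09) and 2.7 ± 0.18 in hom (adjusted p = 5.75e-09), and the difference was -0.14 (95% interval -0.64 to 0.37, leave-out range -0.37 [E2.2] to 0.04 [E1.4]). Of 31 NRF2 targets, Hmox1 included, 8 rose and 7 fell in WT and 5 rose and 7 fell in hom (all genes: 11.2% and 11.7% in WT, 14.6% and 15% in hom). Their median difference was -0.02 (leave-out range -0.05 [E2.9] to 0.03 [E2.1]). Osgin1, an NRF2-dependent growth inhibitor, passed in neither genotype and had a difference of -0.96 (95% interval -1.74 to -0.19), adjusted p = 1, with lines that overlapped.

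Few genes of the respiratory chain passed in either genotype. Of 57 nuclear oxidative phosphorylation genes 0 rose and 1 fell in WT and 2 rose and 0 fell in hom. Their differences were positive for 52 of the 57, with a median of 0.24, but this came with 1 line: the median change was 0.01, 0.00 and -0.12 in WT and 0.49, -0.04 and 0.02 in hom E1.4, E2.2 and E2.9. The median difference had a leave-out range of 0.02 [E1.4] to 0.38 [E2.2]. Atp5l, a subunit of ATP synthase, showed the same pattern, at 121, 124 and 135 CPM untreated and 118, 109 and 119 CPM under AO in WT and at 179, 122 and 126 CPM and 319.8, 114 and 154 CPM in hom. Its log2 change was 0.83 in E1.4 and between -0.18 and 0.28 in the other 5 lines. The difference was 0.53 (95% interval 0.01 to 1.05, leave-out range 0.25 [E1.4] to 0.73 [E2.2]), adjusted p = 1.

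Of the 13 mRNAs encoded by the mitochondrial genome, 2 fell in WT and 4 in hom and 0 rose in either. Per-line medians were -0.22, -0.08 and -0.06 in WT and -1.0, -0.39 and 0.07 in hom, and the median difference was -0.17 (leave-out range -0.41 [E2.9] to -0.06 [E1.4]). mt-Nd4, a complex I subunit, stood at 399, 415 and 440.3 CPM untreated and 326, 422 and 428 CPM under AO in WT, and at 595, 623 and 440.1 CPM and 232, 475 and 461 CPM in hom. The fall was deepest in E1.4, and the difference was -0.43 (95% interval -1.01 to 0.15, leave-out range -0.75 [E2.9] to -0.06 [E1.4]). Of 16 mitochondrial chaperones and proteases, 2 rose and 1 fell in WT and 7 rose and 1 fell in hom, with 13 of 16 differences positive and a median of 0.11 (leave-out range 0.07 [E1.4] to 0.15 [E2.2]). Grpel1, a co-chaperone of mitochondrial HSP70, changed by 0.26, 0.16 and -0.04 in WT and 0.62, 0.33 and 0.30 in hom, a difference of 0.30 (95% interval -0.02 to 0.62, leave-out range 0.19 [E1.4] to 0.36 [E2.9]), adjusted p = 1. Among 23 genes of mitochondrial dynamics and biogenesis, 5 rose in WT and 9 in hom and 0 fell in either. Dnm1l, the GTPase that divides mitochondria, changed by 0.08, 0.09 and -0.02 in WT and 0.37, 0.21 and 0.32 in hom, a difference of 0.25 (95% interval 0.03 to 0.47), adjusted p = 1.

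Txnip fell in both genotypes. The gene encodes an arrestin that retains glucose transporters inside the cell, and it dropped from 60.8, 75.5 and 53.9 CPM to 7.38, 10.4 and 8.76 CPM in WT and from 100.2, 81.7 and 46.1 CPM to 16.2, 9.98 and 10.9 CPM in hom. No treated library reached any untreated one. The log2 change was -2.79 ± 0.23 (SE) in WT and -2.59 ± 0.24 in hom (adjusted p = 1.91e-07 and 4.35e-07), and the difference was 0.20 (95% interval -0.50 to 0.91, leave-out range -0.05 [E2.9] to 0.42 [E2.2]). Of 7 targets of the glucose sensor MondoA, Txnip included, 4 fell in WT and 3 in hom. Its relative Arrdc4 passed in WT (-0.90) and not in hom (-0.10), and the difference, 0.80 (95% interval -0.04 to 1.64, leave-out range 0.43 [E2.7] to 1.06 [E1.5]), did not pass. Among 20 glycolysis genes 3 rose and 3 fell in WT and 3 rose and 5 fell in hom (all genes: 11.2% and 11.7% in WT, 14.6% and 15% in hom). Hk1, the first enzyme of the pathway, had a difference of -0.30 (95% interval -0.61 to 0.02, leave-out range -0.40 [E2.2] to -0.14 [E1.4]), adjusted p = 1.

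Medag, a gene linked to adipocyte differentiation, had the deepest fall of the 16 genes plotted by line, from 16.2, 57.3 and 25.9 CPM to 0.583, 6.298 and 4.005 CPM in WT and from 21.2, 73.7 and 31.6 CPM to 0, 6.83 and 3.25 CPM in hom. It was listed at 0 in hom E1.4 under AO and was also low in WT E1.5. The difference was -0.55 (95% interval -1.82 to 0.73, leave-out range -0.81 [E2.2] to -0.28 [E1.4]). Of 32 fibroblast matrix genes 0 rose and 8 fell in WT, and 1 rose and 15 fell in hom. Their differences were positive in only 6 of 32, with a median of -0.17 (leave-out range -0.28 [E2.9] to -0.04 [E1.4]). The median change in E1.4 was -0.62. Col6a2, a collagen VI chain, changed by -0.43, -0.29 and -0.15 in WT and -1.05, -0.46 and -0.52 in hom, a difference of -0.37 (95% interval -0.70 to -0.04, leave-out range -0.47 [E2.2] to -0.21 [E1.4]), adjusted p = 1.

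**Figure D3:**
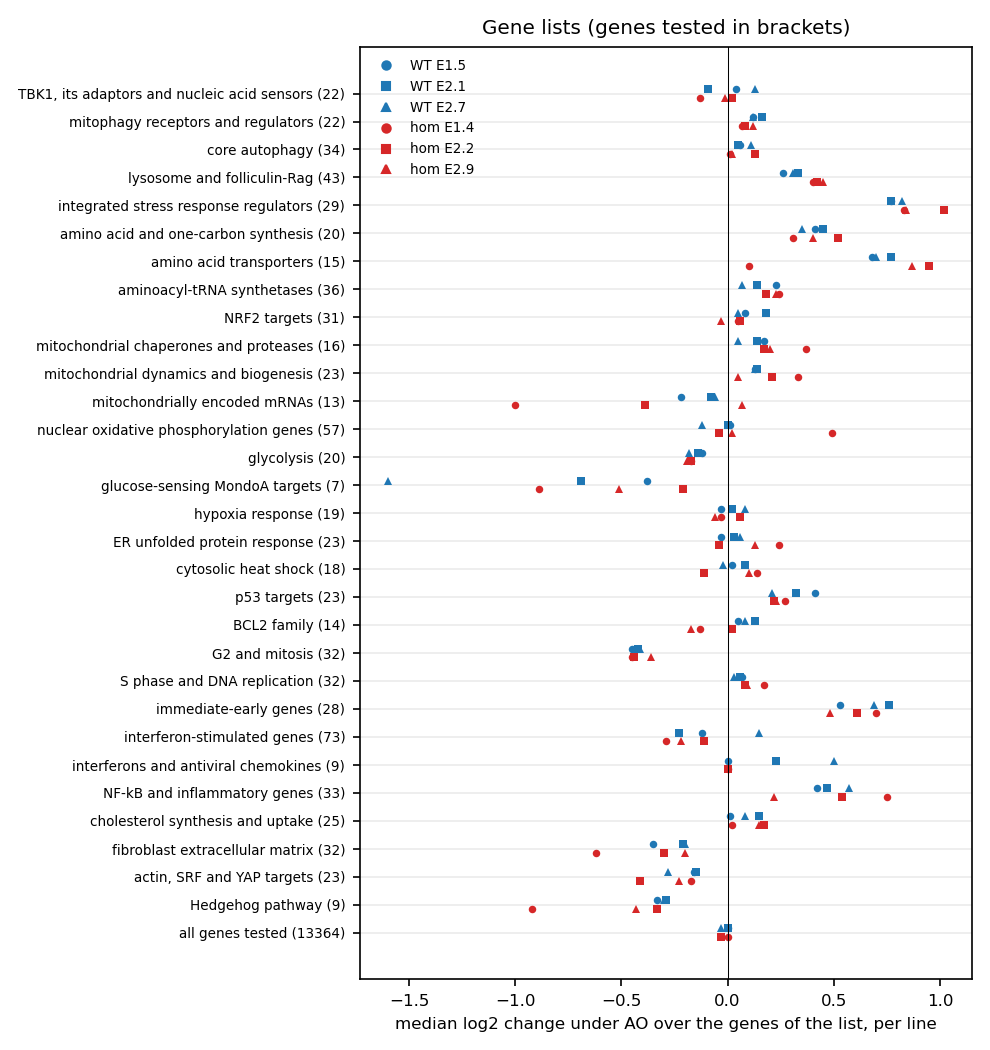
Median log2 change under antimycin and oligomycin (AO) over the genes of each of 30 lists and over all 13364 genes, in each WT (blue) and hom (red) line. Lines of both genotypes lie close together for stress response and mitosis genes, and hom E1.4 stands apart for nuclear oxidative phosphorylation genes (0.49), mitochondrially encoded mRNAs (-1.0) and Hedgehog genes (-0.92).

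Genes of cell division fell in both genotypes. In the list of 32 for G2 and mitosis, 20 fell in WT, 21 fell in hom and 0 rose in either, the median difference was 0.02 (leave-out range -0.04 [E2.9] to 0.03 [E2.2]), and all 32 intervals lay within 2-fold. Plk1, a mitotic kinase, went from 116, 136 and 103 CPM to 69.5, 79.3 and 66.1 CPM in WT and from 133, 132 and 117 CPM to 57.8, 73.3 and 59.6 CPM in hom. Its changes were -0.73, -0.78 and -0.64 in WT and -1.2, -0.85 and -0.97 in hom, each hom line below each WT line, and the difference was -0.29 (95% interval -0.55 to -0.02, leave-out range -0.37 [E2.2] to -0.19 [E1.4]), adjusted p = 1. Gtse1, a microtubule-binding protein of G2 that restrains p53, changed by -0.43, -0.54 and -0.65 in WT and -1.07, -1.01 and -0.83 in hom, a difference of -0.43 (95% interval -0.71 to -0.15), adjusted p = 1. Of 32 S-phase genes 5 rose and 3 fell in WT and 9 rose and 3 fell in hom (all genes: 11.2% and 11.7% in WT, 14.6% and 15% in hom). All 32 intervals lay within 2-fold. Gins1, a part of the replicative helicase, differed by 0.44 (95% interval 0.05 to 0.83, leave-out range 0.26 [E1.4] to 0.54 [E2.2]), adjusted p = 1. Its largest change was in E1.4, 0.81.

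Few interferon-stimulated genes changed under AO in either genotype, and those named here stood at different levels in the genotypes before treatment. Ifit1, an antiviral RNA-binding protein, was at 144, 107 and 122 CPM untreated and 120.0, 69.8 and 115 CPM under AO in WT, and at 1.35, 4.89 and 1.64 CPM and 1.74, 5.78 and 1.34 CPM in hom. All hom libraries lay far below all WT libraries, and the response passed in neither genotype. The difference of responses was 0.40 (95% interval -1.33 to 2.13, leave-out range 0.25 [E2.2] to 0.60 [E2.9]), an interval wide enough to hold a more than 4-fold increase. Of 73 interferon-stimulated genes 0 rose and 4 fell in WT and 1 rose and 3 fell in hom, with a median difference of -0.10 (leave-out range -0.20 [E2.1] to 0.02 [E2.7]) and only 19 of 73 intervals within 2-fold. Gbp3, a guanylate-binding GTPase, was at 35.7, 28.8 and 31.3 CPM and 33.4, 27.02 and 33.9 CPM in WT and at 1.35, 3.14 and 1.76 CPM and 0.498, 0.525 and 0.955 CPM in hom, a difference of -1.61 (95% interval -3.15 to -0.07), adjusted p = 1. For Isg15, a ubiquitin-like modifier, the difference was 0.01 (95% interval -0.86 to 0.89, leave-out range -0.27 [E1.4] to 0.18 [E2.9]).

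The chemokine Cxcl10, which attracts T cells, rose in both genotypes. It went from 90.7, 73.1 and 95.8 CPM to 178, 129.1 and 186 CPM in WT and from 4.93, 15.9 and 7.93 CPM to 22.4, 41.5 and 18.3 CPM in hom. The hom levels stayed below every WT level even after the rise. The log2 change was 0.92 ± 0.31 (SE) in WT (adjusted p = 0.0365) and 1.56 ± 0.41 in hom (adjusted p = 0.00687), every hom line above every WT line, and the difference was 0.64 (95% interval -0.43 to 1.7, leave-out range 0.36 [E1.4] to 0.79 [E2.2]), adjusted p = 1. Ccl5, a chemokine for T cells and monocytes, passed in neither genotype and had a difference of 0.66 (95% interval -0.97 to 2.29, leave-out range 0.12 [E2.2] to 0.90 [E2.9]). Of 28 immediate-early genes 17 rose in WT and 14 in hom, and of 33 NF-kB and inflammatory genes 10 rose and 2 fell in WT and 11 rose and 2 fell in hom. The macrophage growth factor Csf1 differed by -0.28 (95% interval -0.64 to 0.08, leave-out range -0.39 [E2.2] to -0.10 [E1.4]).

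The genes with the smallest p-values are given next, although none passed. They are the 4 genes in each direction with the smallest p, out of those whose log2 CPM averaged 1 or more, and all 8 had per-line changes that did not overlap, beside 12.3% of all genes. Each had an adjusted p of 1, and a choice by p entails that the intervals exclude 0. The same choice favours lines that do not overlap, so the lack of overlap is no further support. Ssh3, a phosphatase of the actin regulator cofilin, went from 5.88, 9.97 and 14.6 CPM to 6.99, 11.5 and 15.3 CPM in WT and from 13.7, 16.8 and 12.2 CPM to 5.23, 11.8 and 8.404 CPM in hom. Every hom line fell and no WT line did, a difference of -0.93 ± 0.24 (SE, 95% interval -1.42 to -0.43). Zfpm1, a cofactor of GATA factors, went from 9.69, 16.1 and 12.2 CPM to 8.16, 11.3 and 11.4 CPM in WT and from 17.1, 13.9 and 16.1 CPM to 7.22, 7.88 and 6.88 CPM in hom. Its change was negative in all 6 lines and passed in hom, with a difference of -0.79 ± 0.21 (SE, 95% interval -1.24 to -0.34).

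Lrp10, a receptor of the low-density lipoprotein receptor family, went from 52.6, 59.96 and 62.99 CPM to 55.2, 59.3 and 60.2 CPM in WT and from 84.2, 61.2 and 63.7 CPM to 59.3, 45.4 and 41.8 CPM in hom. WT lines hardly moved, and the difference was -0.51 ± 0.13 (SE, 95% interval -0.79 to -0.23). Jazf1, a zinc finger protein, was low, at 1.11, 1.14 and 2.39 CPM and 2.91, 3.66 and 4.38 CPM in WT and 2.09, 3.39 and 2.64 CPM and 0.996, 2.89 and 1.72 CPM in hom. It rose in WT (adjusted p = 0.00706) and did not pass in hom, a difference of -1.85 ± 0.48 (SE, 95% interval -2.85 to -0.85). The het lines entered the choice through the shared spread, not through the difference itself. The het minus WT difference was -0.23 ± 0.22 for Ssh3, -0.19 ± 0.19 for Zfpm1, -0.22 ± 0.12 for Lrp10 and -0.89 ± 0.42 for Jazf1. Both comparisons share the WT lines, whose changes also entered the choice, so a shared sign is not separate support.

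Higher in hom were Nudt21, Slbp, the pseudogene Gm10146 and the non-coding transcript 4930581F22Rik. Nudt21, a subunit of the factor that sets the site of mRNA 3′ end cleavage, went from 131, 121 and 109 CPM to 127, 123 and 124 CPM in WT and from 129.6, 109 and 118 CPM to 212, 133 and 159.9 CPM in hom, a difference of 0.43 ± 0.13 (SE, 95% interval 0.16 to 0.71). Slbp, which binds the stem loop of histone mRNAs, changed by -0.17, -0.12 and -0.22 in WT and 0.52, 0.10 and 0.20 in hom, a difference of 0.45 ± 0.14 (SE, 95% interval 0.16 to 0.74). In both genes E1.4 had the largest change, and without it each difference was 0.32. Gm10146 differed by 1.77 ± 0.50, with E1.4 and E1.5 at the 2 ends of the range (1.55 and -1.82), and as a processed pseudogene it may share reads with its parent gene. 4930581F22Rik was below 4 CPM in each library and differed by 1.68 ± 0.52. For het minus WT, which shares the WT lines, the differences were 0.08 ± 0.12 (Nudt21), 0.11 ± 0.13 (Slbp), 1.41 ± 0.46 (Gm10146) and 0.91 ± 0.47 (4930581F22Rik).

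**Figure D4:**
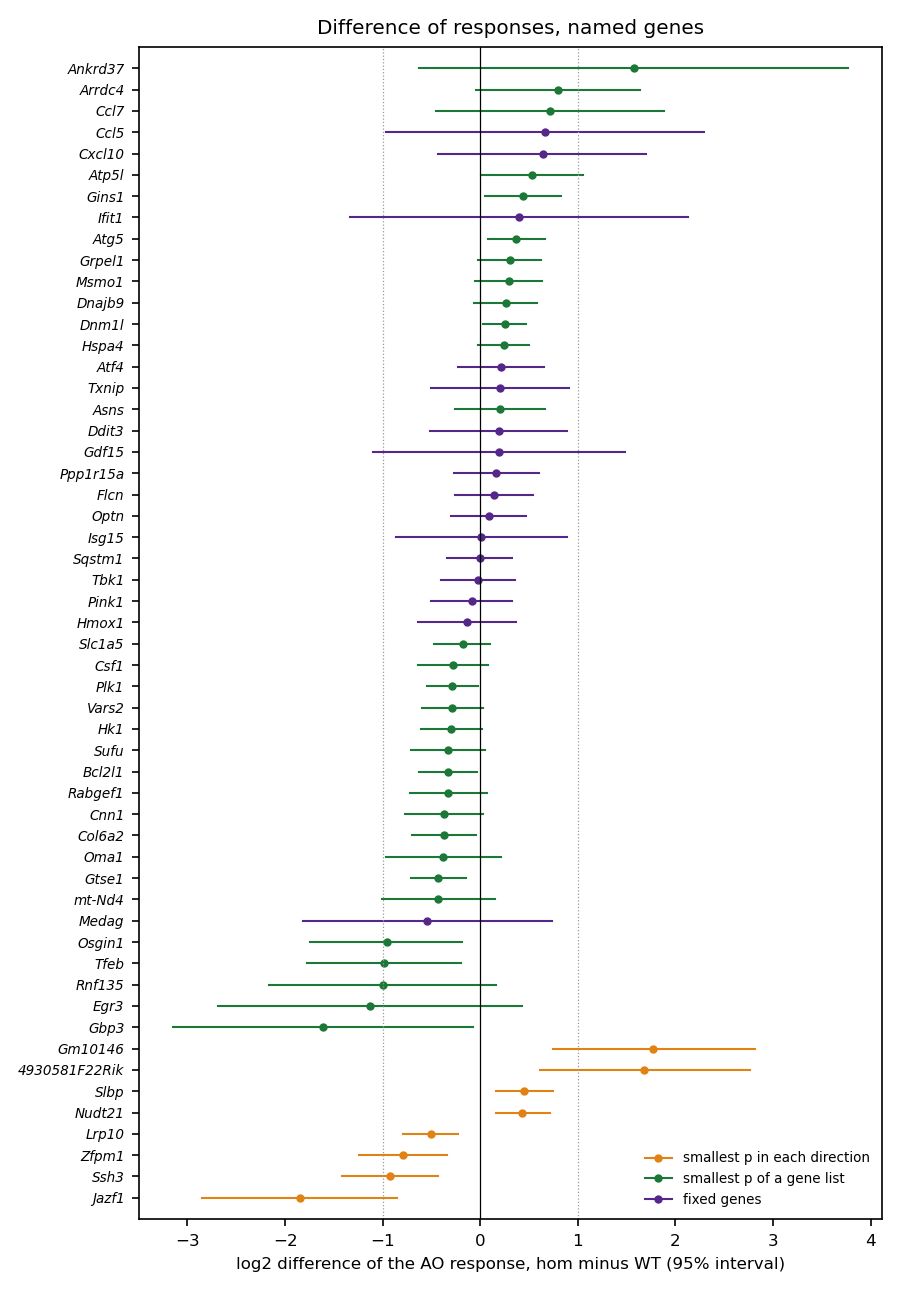
Difference of the log2 response to antimycin and oligomycin (AO), hom minus WT, with its 95% interval for 54 named genes; dotted lines mark 2-fold. No gene passed after adjustment, and the 8 genes at the bottom, picked by the smallest p, have intervals that exclude 0.

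The heterozygous lines gave no passing difference either. For het minus WT, 0 genes passed (0%), with 136 (1.02%) at an unadjusted p under 0.05 in edgeR and 1 passing in DESeq2, Gm26883. For hom minus het, 0 passed (0%), with 502 (3.76%) at an unadjusted p under 0.05 in edgeR. There the smallest edgeR adjusted p was 0.952, and 1 gene passed in DESeq2, Gm49388. Both genes are named after their values were seen. Within het lines 3671 genes passed under AO (27.5%), 1723 higher (12.9%) and 1948 lower (14.6%).

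Whether the genotype acts on AO as it does on poly(I:C) was tested by the difference of the 2 treatments within each line, in which the untreated libraries cancel. At an unadjusted edgeR p under 0.05 there were 1879 genes (14.1%), above the share of 0.05 that evenly spread p-values would give. Other genes may thus differ without passing. After adjustment a single gene passed, Ppp1r15a (0.00748% of genes tested). Under poly(I:C) its level was 156.7, 98.3 and 179 CPM in WT and 65.9, 46.4 and 58.6 CPM in hom, against 386, 367 and 359.6 CPM and 423, 376 and 366 CPM under AO. The hom lines were thus lower than every WT line under poly(I:C) and overlapped them under AO. AO minus poly(I:C) was 1.3, 1.9 and 1.0 in WT (mean 1.4 ± 0.46, SD), 0.93, 0.77, 1.28 and 1.63 in het (1.15 ± 0.38) and 2.68, 3.01 and 2.64 in hom (2.78 ± 0.20). The hom minus WT difference was 1.39 ± 0.21 (SE, 95% interval 0.95 to 1.83), edgeR adjusted p = 0.0274. It no longer passed in 7 of 12 alternatives, among them without the line block (adjusted p = 0.908), without WT E1.5 (0.301) or E2.7 (0.328) and without hom E1.4 (0.0799) or E2.2 (0.0897), while its size stayed between 1.20 and 1.43 in these.

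**Figure D5:**
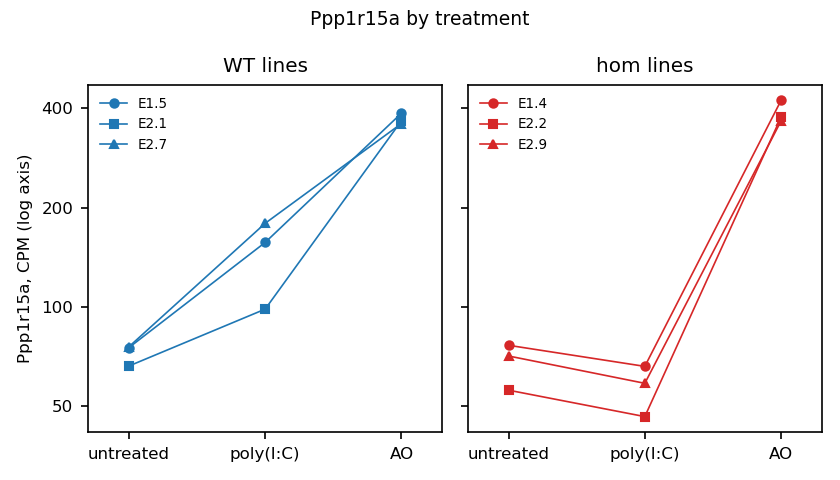
Ppp1r15a in CPM (log axis) in each WT (left) and hom (right) line, untreated, with poly(I:C) and with antimycin and oligomycin (AO); lines join libraries of the same cell line. WT lines stood at 98.3 to 179 CPM and hom lines at 46.4 to 65.9 CPM under poly(I:C), and all 6 lines at 359.6 to 423 CPM under AO.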

How the data were processed

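RNA of 36 libraries was sequenced from mouse embryonic fibroblast lines. Per the labels, total RNA was isolated on RNeasy Plus columns and entered a TruSeq Stranded mRNA preparation. The authors deposited expected counts per gene, which are estimates and can be fractional (6.11% to 13.4% of values per library). STAR, RSEM and mm10 come from the submitters' processing notes. The sources used here give neither versions nor the strand setting. RSEM divides reads that match several genes among them, which makes near-identical copies uncertain.

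The expected counts were rounded. Of 49585 genes 49326 matched GENCODE vM21, which gave names and mm10 coordinates. The 30 libraries without a density label (9 groups, 10 lines) were fitted together (R 4.3.3, edgeR 4.0.16) after TMM and filterByExpr (minimum count 10, minimum total 15), a coefficient per line and a treatment coefficient per genotype (16 in all, 14 residual degrees of freedom). The quasi-likelihood F test with Benjamini-Hochberg adjustment over 13364 genes and a threshold of 0.05 was used throughout. Standard errors come from the F statistic and intervals from its degrees of freedom. Per-line changes are differences of log2 CPM with a prior count of 2. CPM is scaled by TMM. Promoters are RefSeq's on GRCm38.p6. The procedure was also run on simulated counts with known differences in genes of higher count, so that run does not cover genes with few counts.

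By the titles each line was used under every treatment, so the line pairs its libraries. Within a line, the untreated and AO deviations from group means had a correlation across genes of 0.551 to 0.765, and of at most 0.141 with another line. Such deviations cancel within a group of 3 lines, which lowers correlations with its other lines, so this contrast is partly fixed in advance. Replicate libraries differed by more than sampling noise (chi-square per degree of freedom 5.11 to 57.7 over 12 pairs). The named genes are the 4 in each direction with the smallest p and a log2 CPM averaging 1 or more (used as fewer than 4 passed), the member of each of 30 lists with the smallest p, and 16 fixed genes. The comparison, lists and markers were chosen with earlier results of these data known. Alternatives were no line block, RLE factors, no filter, DESeq2 1.42.0, limma 3.58.1 on per-line changes, the 12 libraries alone, an E1 by treatment term, E2 lines alone and leaving out each line. Limma was run for hom minus WT alone, and the fit of 12 libraries for that difference and the 2 responses it compares. Libraries labelled high or low density entered no test. P-values and intervals rest on counts without molecular identifiers, and depth limits low genes.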

Additional observations from a re-analysis of the deposited data

Results flagged for a closer look

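Ppp1r15a, the GADD34 gene, differed between hom and WT in how AO compared with poly(I:C): the difference was 1.39 on the log2 scale, by edgeR's test of that difference, in all 3 hom lines against all 3 WT lines without overlap. It was the 1 gene of 13364 that passed in the main edgeR fit. The genotypes overlapped under AO, while under poly(I:C) hom lines stood at 46.4 to 65.9 CPM and WT lines at 98.3 to 179 CPM. Ppp1r15a still passed in 5 alternatives and no longer passed in 7, among them without the line block (edgeR adjusted p = 0.908).

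Over the 4 het lines, the median AO change of 32 G2 and mitosis genes was -0.45 in line E1.3 and -0.39 to -0.38 in the other 3, so E1.3 lay far from the others relative to their range. WT line E1.5 and hom line E1.4 also had medians of -0.45. For 23 actin, SRF and YAP targets the het line E2.6 had a median of -0.14, against -0.26 to -0.24 in the other 3 het lines. Chance alone marks about 1 in 20 groups in this way, and 30 lists were examined.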

How the results depend on the processing

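The hom minus WT difference gave 0 genes with RLE factors, without the replicate block, with the 12 libraries alone, with the E1 by treatment term, with E2 lines alone, with limma and without each line in turn. Without the filter on low counts, which left 25757 genes, 42 passed, 37 of them genes that the filter keeps and 26 not protein-coding. CT010467.1, Gm26917, Rn7s1, Rn7s2, Gm10146, AY036118 and mt-Co1 were among them, with fitted differences close to those with the filter, and the cause was not tested. DESeq2 gave 1 for hom minus WT, 1 for het minus WT and 1 for hom minus het, and no filter gave 33 and 61 for the latter pair.

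The AO response in WT fell to 1024 genes without the replicate block and ranged from 1448 to 4610 when a line was left out, and that in hom fell to 1749 without the block. AO against poly(I:C), hom minus WT, gave 0 genes without the replicate block, with the E1 by treatment term and with E2 lines alone, 619 without the filter, 13 with DESeq2 and 0 to 6 when a line was left out. For Ppp1r15a in that comparison the size without the block was 1.41, with the E1 term 1.39 (adjusted p = 0.055) and in E2 lines 1.39 (adjusted p = 0.994). The cause of these shifts was not tested.

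Of the list medians 253 values under an alternative moved by less than their spread and 17 by more, nuclear oxidative phosphorylation genes among them. Across the alternatives 15 of 30 list medians and 7 of 54 named genes' differences, none of them called, changed sign at least once. The median for interferons and antiviral chemokines went from -0.22 to 0.67 without WT E2.7 and to 0.65 with the 12 libraries alone. There were 3 lines per genotype, and the hom AO libraries held 3689149 to 5320971 counts. Some genes with few counts, Gdf15 and, in hom, Ifit1 among them, had intervals that hold over 2-fold either way.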

Other observations

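In further gene groups 0 genes passed the test of the difference in edgeR (0% of all genes). Under AO itself 11.2% of all genes rose and 11.7% fell in WT, and 14.6% rose and 15% fell in hom. Of 25 genes of cholesterol synthesis and uptake 4 rose and 2 fell in WT and 6 rose and 3 fell in hom. Msmo1, a sterol demethylating enzyme, rose in every line, by 0.95, 1.0 and 0.91 in WT and 1.32, 1.12 and 1.28 in hom, a difference of 0.29 (95% interval -0.05 to 0.63). Of 23 genes of the endoplasmic reticulum stress response 6 rose and 1 fell in each genotype, and Dnajb9, an ER co-chaperone, rose by 0.85 in WT and 1.11 in hom, a difference of 0.26 (95% interval -0.06 to 0.58, leave-out range 0.08 [E2.9] to 0.39 [E1.4]). Of 18 cytosolic heat shock genes 1 rose and 2 fell in WT and 5 rose and 1 fell in hom, and Hspa4, an HSP70 family member, differed by 0.24 (95% interval -0.02 to 0.50). Of 23 p53 targets 9 rose and 5 fell in WT and 10 rose and 5 fell in hom. Of 14 BCL2 family genes 3 rose and 3 fell in WT and 5 rose and 4 fell in hom, and Bcl2l1, which encodes the survival factor BCL-XL, changed by 0.38, 0.23 and 0.03 in WT and -0.26, 0.14 and -0.21 in hom, a difference of -0.33 (95% interval -0.63 to -0.03, edgeR adjusted p = 1).

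Of 9 Hedgehog pathway genes 2 fell in WT and 6 in hom and 0 rose. The median change was -0.33, -0.29 and -0.30 in WT and -0.92, -0.33 and -0.43 in hom E1.4, E2.2 and E2.9, and the median difference was -0.18 (leave-out range -0.33 [E2.9] to -0.12 [E1.4]). Sufu, an inhibitor of the pathway, differed by -0.33 (95% interval -0.71 to 0.05, leave-out range -0.47 [E2.1] to -0.18 [E1.4]). Of 23 actin, SRF and YAP targets 4 rose and 8 fell in WT and 5 rose and 10 fell in hom, and Cnn1, a smooth muscle calponin, differed by -0.37 (95% interval -0.77 to 0.03). Of 19 hypoxia genes 4 rose and 5 fell in WT and 5 rose and 4 fell in hom (all genes: 11.2% and 11.7% in WT, 14.6% and 15% in hom). Ankrd37, a hypoxia-induced gene, was below 2 CPM in each library, and its difference of 1.57 had an interval of -0.63 to 3.77. Egr3, an immediate-early transcription factor, and the chemokine Ccl7 had similarly wide intervals, -2.69 to 0.43 and -0.45 to 1.88 (leave-out range 0.20 [E1.4] to 1.12 [E2.9]).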
